A study of Hydractinia symbiolongicarpus with 45 samples.

Results

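The 150 RNAs described here were already present in the unfertilized egg of Hydractinia symbiolongicarpus, kept nearly the same level in rRNA-depleted libraries to 3 hours post fertilization (hpf), and gained signal in poly(A)+ libraries over the same time. Of 22022 gene models, 44 on scaffold HyS0385 and 1178 whose counts were identical to those of another model in every library were left out, with some models in both groups, and 20843 remained. Levels are given in TPM (counts divided by coding length and scaled to the same sum within each library). Members had a mean of at least 10 TPM in rRNA-depleted egg libraries, which 9489 models reached. On the scale of log2(mean TPM + 1), 9260 of these differed by less than 0.3 between 3 hpf and egg in rRNA-depleted libraries. A gain of at least 0.5 in poly(A)+ libraries was seen for 832 of them, and the 150 with the largest gain are the members. The remaining 9110 models with a stable rRNA-depleted level, called the other stable maternal genes, are given beside them. The members were thus chosen by their values in the egg and 3 hpf libraries of both types, and values from those libraries are a description and were not tested.

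Hydractinia is a colonial marine hydrozoan, a cnidarian whose embryos develop outside the parent. The study compared poly(A)+ libraries, in which RNA is captured by its tail, with rRNA-depleted libraries, which keep RNA with or without a tail, in order to separate changes of tail length from changes of RNA amount around the activation of the embryonic genome. Triptolide-treated embryos (20 µM in 0.5% DMSO from 0.5 hpf, collected at 7 hpf, clutches D and G) had 2 libraries of each type, as did embryos in 0.5% DMSO alone of the same stage and clutches. Untreated samples were the egg (clutches A, C and D), 0.5 and 1 hpf (A), 2, 3 and 4 hpf (A and C), 5 and 6 hpf (B), 7 hpf (B, and D in poly(A)+ only) and larvae at 24, 48 and 72 hpf (E and F, poly(A)+ only). Gametes came from laboratory breeder colonies, all samples were labelled wild type, and each library was made from whole eggs, embryos or larvae pooled. Apart from the untreated 7 hpf sample of clutch D, samples up to 7 hpf were split, so that a poly(A)+ and an rRNA-depleted library came from the same sample. Clutch letters were taken as separate spawnings, and p-values measure the spread between these few libraries. A whole-embryo library does not tell a change in the share of cells that hold an RNA from a change in RNA per cell. TPM are relative to each library's total, so they carry no amount per embryo.

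Eggs of many animals store part of their mRNA with short poly(A) tails. In the oocytes and embryos where it has been studied, such as those of frogs and flies, sequence-specific RNA-binding proteins such as CPEB and a cytoplasmic poly(A) polymerase lengthen the tails of chosen messages at maturation or after fertilization, which favours their translation. Selection on oligo(dT) captures an RNA better when its tail is long, so an RNA whose tail lengthens can rise in poly(A)+ libraries with no change in rRNA-depleted ones. Triptolide inhibits transcription by RNA polymerase II. The counts carry no gene names. In the sources used here, which lack some of its supplementary tables, the paper annotates 1 member, HyS0058.97, as Dp-1. In other animals this winged-helix protein pairs with E2F factors in control of cell cycle genes. Of 3 other genes of maternal regulation listed here, 0 are members. These are the predicted H4K20 methyltransferases HyS0034.48 and HyS0117.8 and the RNA-binding clearance factor Smaug (HyS0016.179).

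The limit of the set fell within a continuous range of gains. On the log2(mean TPM + 1) scale, the poly(A)+ gain from egg to 3 hpf was 1.07 for each of the last 3 members, HyS0004.131, HyS0038.37 and HyS0110.14. It was 1.06 for HyS0017.163 and HyS0001.224 and lay between these values for HyS0024.243, the 3 models just outside. Over the members the gain ranged from 1.07 to 2.88 with a median of 1.27. It was at least 0.5 in both clutches that had egg and 3 hpf libraries, for 150 of 150 members, with a median of 1.48 in clutch A and 1.23 in clutch C. Both 3 hpf libraries lay above all 3 egg libraries for 149 members. The choice by this gain largely sets both counts, and no share over other genes is given beside them.

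The member with the largest gain was HyS0028.89. It had 21.6 and 23.7 TPM in the poly(A)+ libraries at 3 hpf, against 1.76, 2.35 and 2.52 TPM in those of the egg. In rRNA-depleted libraries the same RNA had 64.2 and 70.2 TPM at 3 hpf, against 60.5, 74.5 and 74.5 TPM in the egg. The egg thus held this RNA at a level that poly(A)+ selection recovered only in small part, and no egg library overlapped a 3 hpf library in poly(A)+. HyS0093.1 was next, with 109.5 and 95.5 TPM at 3 hpf and 11.8, 15.1 and 12.5 TPM in the egg in poly(A)+ libraries. Its rRNA-depleted level was 143 and 153.04 TPM at 3 hpf and 160.3, 158 and 155 TPM in the egg. For HyS0087.57 the poly(A)+ values were 40.4 and 36.2 TPM at 3 hpf and 5.19, 4.74 and 7.39 TPM in the egg. The other 7 of the 10 largest gains were those of HyS0018.20 (2.44), HyS0026.169 (2.40), HyS0060.90 (2.12), HyS0087.34 (2.06), HyS0023.1 (2.05), HyS0029.99 (2.00) and HyS0103.18 (2.00), in log2. None of these 10 carries an annotation in the sources used here, so their roles are left unnamed.

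The amount of the members in the egg was spread much like that of the other stable maternal genes. Their rRNA-depleted egg level had a median of 71.7 TPM (quartiles 40.4 and 102), and that of the other stable maternal genes a median of 70.3 TPM (41.8 and 107). In poly(A)+ egg libraries the members were lower, with a median of 18.6 TPM, against 56.7 TPM in the other stable maternal genes, a difference that the choice by poly(A)+ gain partly sets. At 4 hpf, a stage the rule did not use, the poly(A)+ medians were 58.3 TPM in members and 55.2 TPM in the others. Coding lengths ran from 270 to 14544 bases in members, with a median of 1755 bases, against 1413 bases in the others. The members lay on 73 of 1183 scaffolds, at most 6 on a single one, and 7 of them were numbered next to another member. Every member was counted in the egg, with a sum of at least 34 counts over the 3 poly(A)+ egg libraries.

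**Figure D1:**
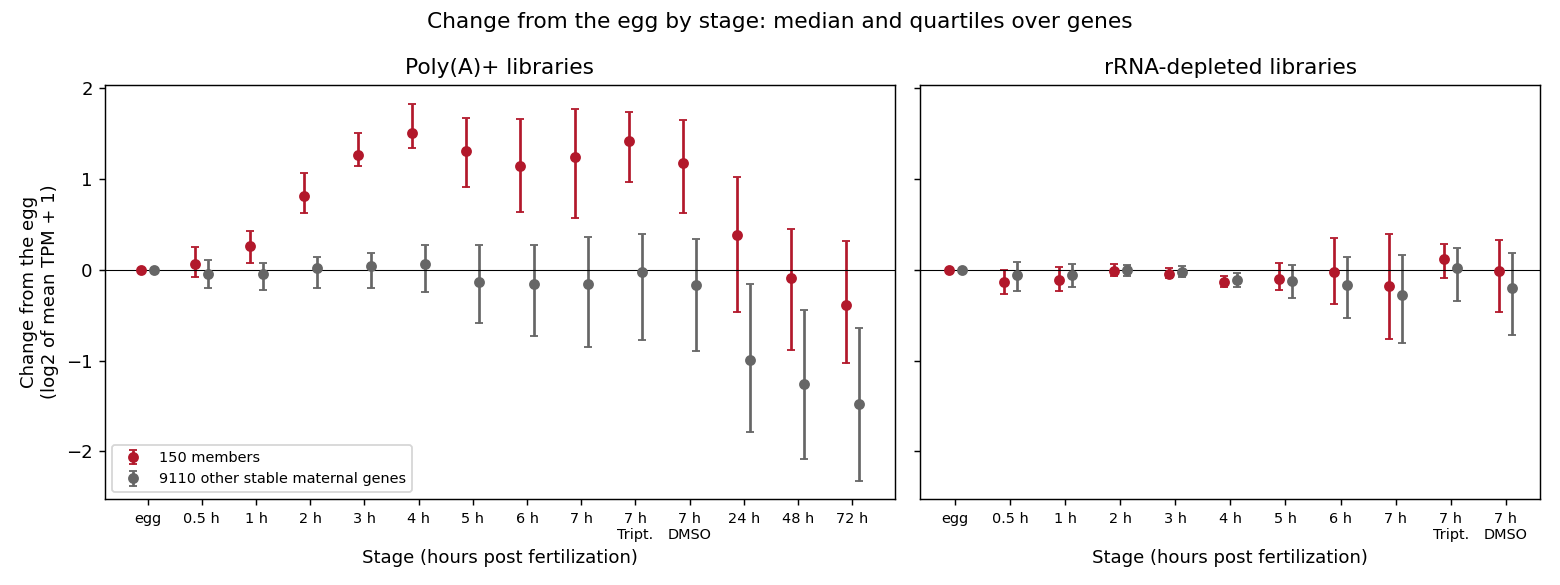
Change from the egg at each stage, in log2 of mean TPM + 1, for poly(A)+ libraries (left) and rRNA-depleted libraries (right). Points are medians and bars quartiles over the 150 members (red) and over the 9110 other stable maternal genes (grey). In poly(A)+ libraries the member median climbed to 1.51 at 4 hpf and was -0.39 at 72 hpf, while the members' medians in rRNA-depleted libraries lay between -0.18 and 0.12.

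Across the time course the median poly(A)+ gain of the members was small in the first hour and largest at 4 hpf. It was no longer seen at 48 hpf. A change from the egg within the first hour was not tested. The median change from the egg was 0.07 at 0.5 hpf, 0.26 at 1 hpf, 0.81 at 2 hpf, 1.27 at 3 hpf and 1.51 at 4 hpf, in log2. The other stable maternal genes had medians of -0.04, -0.05, 0.02, 0.04 and 0.06 at the same stages. In per cent of each member's gain at 3 hpf, the median was 5.4% at 0.5 hpf, 19.3% at 1 hpf, 62.7% at 2 hpf and 115% at 4 hpf, so on these means most of the gain fell between 1 and 3 hpf. The 0.5 and 1 hpf libraries were of clutch A only, while the egg mean was over clutches A, C and D. In poly(A)+ egg libraries the members summed to 0.308% of all TPM in clutch A, against 0.392% and 0.393% in C and D. The early percentages thus mix clutch with time. Within clutch A, the member median of poly(A)+ minus rRNA-depleted was -1.91 in the egg, -1.59 at 0.5 hpf, -1.36 at 1 hpf and -0.38 at 3 hpf. The members' median change was 1.31 at 5 hpf, 1.14 at 6 hpf and 1.24 at 7 hpf. At 7 hpf 136 of 150 members were still above the egg, against 42.7% of the other stable maternal genes. The poly(A)+ level of 61 members (40.7%) was highest at 4 hpf and of 27 (18%) at 5 hpf. It was highest at 7 hpf for 34 (22.7%) and at 24 hpf for 9 (6%). In the other stable maternal genes these shares were 14.3%, 12.7%, 17.1% and 7.9%. In larvae the median change was 0.38 at 24 hpf, -0.09 at 48 hpf and -0.39 at 72 hpf, against -0.99, -1.26 and -1.48 in the other stable maternal genes.

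The members together made up a growing share of poly(A)+ RNA and an even share of rRNA-depleted RNA. Their summed TPM were 0.364% ± 0.049 of all TPM in the poly(A)+ libraries of the egg (SD, n = 3), 0.691% ± 0.050 at 2 hpf, 0.962% ± 0.012 at 3 hpf, 1.11% ± 0.076 at 4 hpf and 0.996% ± 0.029 at 7 hpf (SD, n = 2 each). In larvae the share was 0.485% ± 0.039 at 24 hpf and 0.285% ± 0.021 at 72 hpf (SD, n = 2 each). In rRNA-depleted libraries it was 1.27% ± 0.048 in the egg (n = 3), 1.23% ± 0.061 at 3 hpf and 1.16% ± 0.099 at 4 hpf (SD, n = 2 each). Within each clutch at 4 hpf the poly(A)+ share was slightly below the rRNA-depleted one. It was 1.058% against 1.09% in clutch A and 1.165% against 1.23% in clutch C. The rest of the libraries differed too. The other stable maternal genes made up 97.16% and 97.42% of poly(A)+ TPM in A and C, against 86.9% and 93.2% of rRNA-depleted TPM.

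The split samples allowed both library types to be set side by side within the same sample. In the egg the poly(A)+ minus rRNA-depleted level of the members had a median of -1.91, -1.72 and -1.72 in log2(TPM + 1) in clutches A, C and D, against -0.20, -0.12 and -0.11 in the other stable maternal genes. The member median was -1.59 at 0.5 hpf, -1.36 at 1 hpf, -0.95 and -0.87 at 2 hpf, -0.38 and -0.40 at 3 hpf and -0.06 and -0.08 at 4 hpf. At 4 hpf the other stable maternal genes had -0.02 and 0.00, so the members had come up to the balance of the rest. After 4 hpf members were again below the others, with -0.35 at 5 hpf, -0.69 at 6 hpf and -0.46 at 7 hpf, against -0.22, -0.26 and -0.10 in the other stable maternal genes. These last 3 samples were all of clutch B and among the shallowest, and clutch and stage cannot be told apart there. In the 7 hpf DMSO samples of clutches D and G the member median was -0.52 and -0.56, against -0.14 and -0.22 in the other stable maternal genes. The samples at 0.5, 1, 2 and 4 hpf were not used in choosing the members, although they came from clutches A and C, as did the 3 hpf libraries that were.

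**Figure D2:**
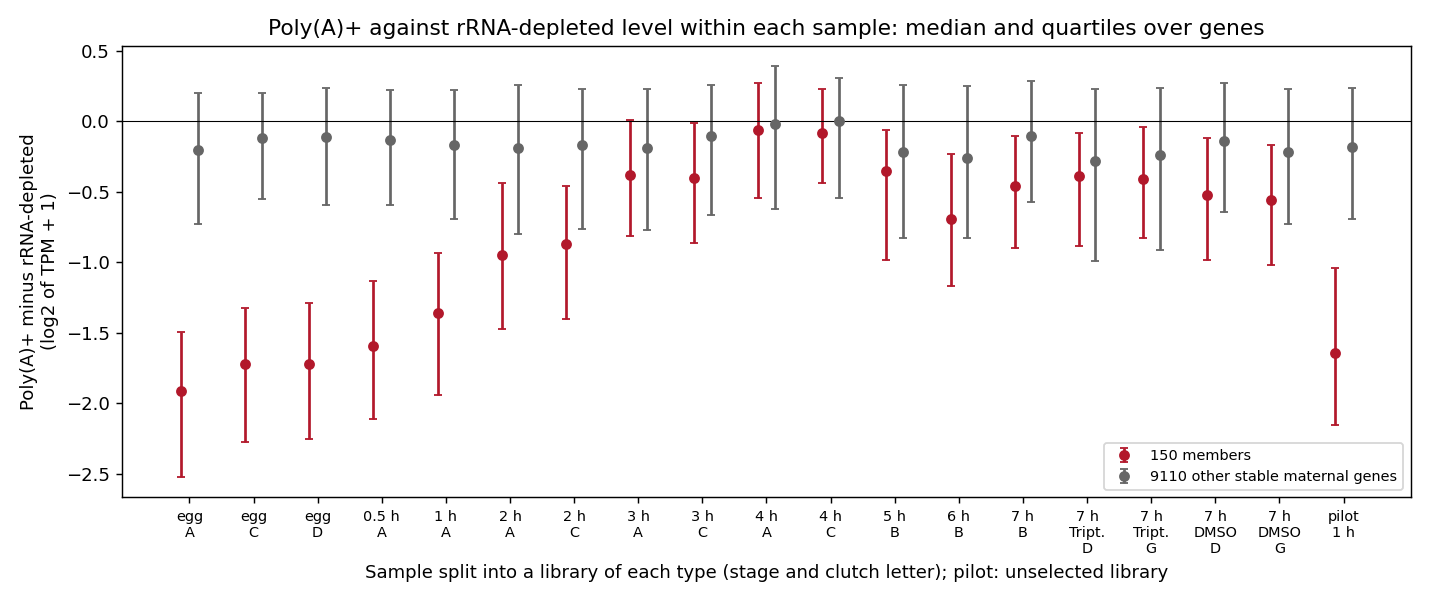
Poly(A)+ minus rRNA-depleted level within each split sample, in log2 of TPM + 1, by stage and clutch letter. Points are medians and bars quartiles over the 150 members (red) and the 9110 other stable maternal genes (grey). The red medians run from -1.91 in the egg of clutch A to -0.06 and -0.08 at 4 hpf, and the pair of pilot libraries at 1 hpf, set last, has a red median of -1.64.

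All 150 members passed the filter on low counts in every fit. The first tested question was whether the members rose in poly(A)+ libraries that the choice had not used. At 2 hpf 58 members were higher than the mean of the 0.5 and 1 hpf libraries and 0 were lower, by edgeR's two-sided quasi-likelihood F test at a Benjamini-Hochberg adjusted p under 0.05 over all 18928 genes tested. Over all those genes 0.475% were called higher and 3.03% lower, which is 90 and 574 genes, so the members made up 58 of the 90 genes called higher. Their median log2 fold change was 0.64 (quartiles 0.47 and 0.91), against -0.01 in the other stable maternal genes. Both 2 hpf libraries lay above the 0.5 and 1 hpf libraries for 143 members, where 19.3% of all genes did so. The 0.5 and 1 hpf libraries were both of clutch A, and within that clutch alone the 2 hpf library was above both for 147 of 150 members and for 35.8% of the other stable maternal genes. With clutch as a block 34 members were called higher. The count rested on single libraries, being 3 without the 0.5 hpf library, 32 without the 2 hpf library of clutch A and 17 without that of clutch C.

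At 4 hpf nearly all members had risen. There 138 members were higher than the mean of 0.5 and 1 hpf and 0 were lower (edgeR, adjusted p under 0.05), where 9.49% of 18928 genes were called higher and 6.37% lower. The median log2 fold change was 1.40 (quartiles 1.07 and 1.73) in members and 0.02 in the other stable maternal genes. Both 4 hpf libraries lay above both early ones for all but 2 members, and for 31.6% of all genes. Within clutch A alone the 4 hpf library was above both for 149 members and 45.7% of the other stable maternal genes. This comparison shares the 0.5 and 1 hpf libraries with the one at 2 hpf. Leaving out any one library of the compared groups left 105 to 126 members called.

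The members with the largest tested changes showed how far single RNAs moved. HyS0028.89 had 9.25 and 12.5 TPM at 2 hpf and 21.6 and 32.7 TPM at 4 hpf, against 2.46 TPM at 0.5 hpf and 3.50 TPM at 1 hpf. Its log2 fold change over 0.5 and 1 hpf was 1.84 ± 0.20 (SE) at 2 hpf (edgeR, adjusted p = 4.61e-05) and 3.13 ± 0.20 at 4 hpf (adjusted p = 6.47e-08). Its libraries at 4 hpf lay above those at 2 hpf, and these above both of the first hour, while those at 3 and 4 hpf overlapped. HyS0068.83, a scarce RNA, had 7.47 and 9.35 TPM at 4 hpf, against 0.444 TPM at 0.5 hpf and 0.456 TPM at 1 hpf. Its log2 fold change was 4.13 ± 0.44 (edgeR, adjusted p = 4.08e-06). HyS0033.119, with a coding length of 270 bases, had 10.7 and 14.2 TPM at 2 hpf and 46.7 and 41.0 TPM at 4 hpf, against 0.418 TPM at 0.5 hpf and 8.01 TPM at 1 hpf. Its log2 fold change was 2.79 ± 0.61 at 2 hpf (edgeR, adjusted p = 0.012) and 4.601 ± 0.62 at 4 hpf (adjusted p = 4.36e-05). The early libraries of HyS0033.119 lay far apart, and without the one at 0.5 hpf the change at 2 hpf was 0.55 (edgeR, adjusted p = 1). That call was also lost without the 2 hpf library of clutch C (edgeR, adjusted p = 0.0716) and with clutch as a block (adjusted p = 0.0649).

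**Figure D3:**
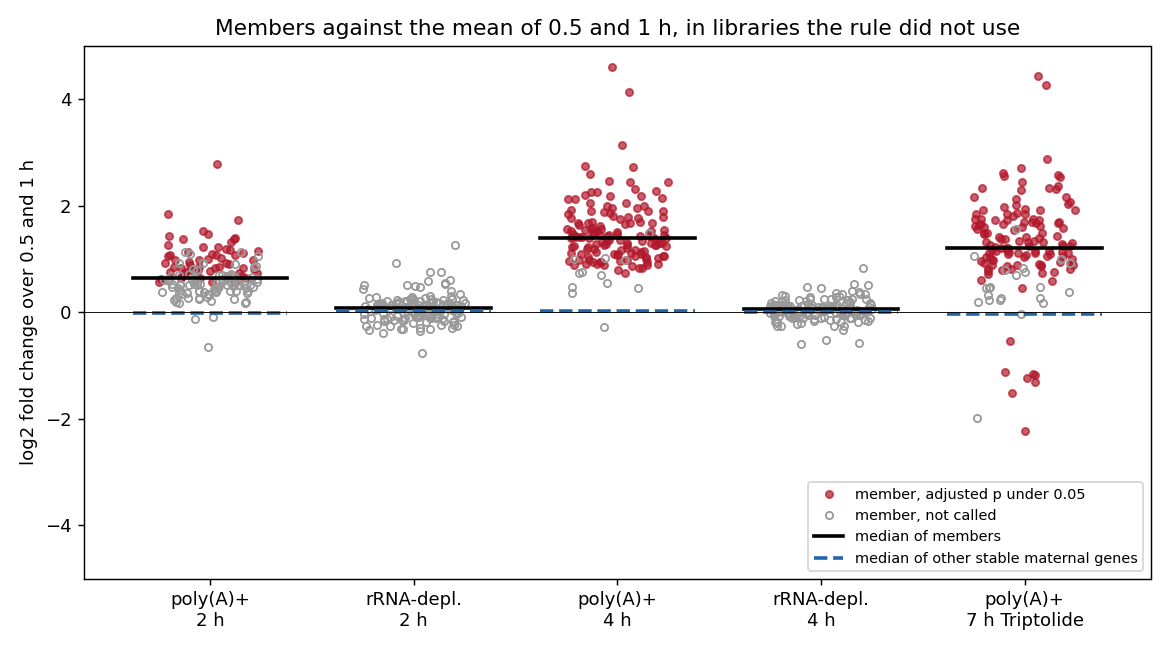
Log2 fold change of each member over the mean of 0.5 and 1 hpf, by library type and stage. Filled red points are members called at an adjusted p under 0.05, open grey points are the rest, black lines are member medians and dashed blue lines the medians of the other stable maternal genes. The axis leaves out 2 points, those of HyS0040.199 in rRNA-depleted libraries. In poly(A)+ libraries the member medians were 0.64 at 2 hpf, 1.40 at 4 hpf and 1.21 in Triptolide, and in rRNA-depleted libraries 0.09 and 0.05.

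In rRNA-depleted libraries no such rise was seen. At 2 hpf 0 of 150 members were called in either direction against 0.5 and 1 hpf, as were 0% of 15944 genes (0 higher and 0 lower), with edgeR and with 0 members in DESeq2 as well. At an unadjusted p under 0.05, edgeR gave 7 members higher and 2 lower at 2 hpf, and DESeq2 gave 9 and 2. At 4 hpf edgeR and DESeq2 again called 0 members, where edgeR called 1.82% of genes higher and 0.358% lower, and at an unadjusted p under 0.05 edgeR gave 5 members higher and 1 lower and DESeq2 gave 3 and 1. The member medians were 0.09 at 2 hpf and 0.05 at 4 hpf, and those of the other stable maternal genes 0.02 and 0.00. The even level was in part chosen, since the rule asked for a stable rRNA-depleted level at 3 hpf.

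A few members differed between clutches more than between stages, which averages over clutches hide. HyS0040.199 was listed at 0 in the rRNA-depleted libraries of clutch A in the egg and at 0.5, 1, 3 and 4 hpf, with 4.23 TPM at 2 hpf, and had 15.2, 13.6, 26.5 and 10.99 TPM in the egg and at 2, 3 and 4 hpf in clutch C. In poly(A)+ libraries of clutch A it was present throughout, with 5.44 TPM at 0.5 hpf and 57.0 TPM at 4 hpf. HyS0114.2 went the other way, with 29.7 TPM in clutch A and 6.00 TPM in clutch C at 3 hpf in rRNA-depleted libraries. Both are short, at 450 and 312 bases of coding length, and these 2 members were chosen for mention after their values were seen. HyS0033.119, the member with the largest tested poly(A)+ change, also differed by clutch in rRNA-depleted libraries. In clutch A it had 0.718 TPM in the egg, 14.2 TPM at 0.5 hpf, 7.77 TPM at 1 hpf and 5.41 TPM at 2 hpf and was listed at 0 at 3 and 4 hpf, and in clutch C it had 17.5, 49.1, 29.95 and 25.2 TPM in the egg and at 2, 3 and 4 hpf. Its change was not shown to differ between library types, at 4.40 ± 2.06 (SE) at 4 hpf in log2 (edgeR, adjusted p = 0.375).

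The difference between library types was tested directly, as the change in poly(A)+ minus the change in rRNA-depleted libraries. At 2 hpf 16 members had a larger change in poly(A)+ and 0 a smaller one (edgeR, adjusted p under 0.05), where 0.0874% of 19461 genes, 17 in number, had a larger change and 2.06% a smaller one. At 4 hpf 108 members had a larger change and 0 a smaller one, where 1.62% of genes, 315 in number, had a larger change and 3.52% a smaller one. The member medians of this difference were 0.56 at 2 hpf and 1.27 at 4 hpf, against -0.05 at both stages in the other stable maternal genes. With the sample behind each pair of libraries as a block, the counts were 72 at 2 hpf and 138 at 4 hpf. The count at 2 hpf fell to 2 without the poly(A)+ library at 0.5 hpf and to 7, 9 or 10 without any of 5 others (7 without rRNA-depleted 2 hpf of clutch A, 9 without poly(A)+ 2 hpf of clutch C or rRNA-depleted 1 hpf, 10 without rRNA-depleted 0.5 hpf or 2 hpf of clutch C), and that at 4 hpf lay between 79 and 107 with any one library left out. In a fit of the compared groups only, edgeR called 0 members at 2 hpf, with 71 members larger at an unadjusted p under 0.05.

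The 2 members with the largest called difference at 2 hpf were HyS0028.89 and HyS0026.169. For HyS0028.89 the poly(A)+ minus rRNA-depleted level was -2.51 and -2.51 at 2 hpf and -1.28 and -0.95 at 4 hpf, against -4.09 at 0.5 hpf and -3.86 at 1 hpf, in log2(TPM + 1). The tested difference was 1.72 ± 0.23 (SE) at 2 hpf (edgeR, adjusted p = 9.91e-05) and 3.08 ± 0.23 at 4 hpf (adjusted p = 1.05e-08). HyS0026.169 had 22.8 and 24.7 TPM in poly(A)+ libraries at 2 hpf, against 6.92 TPM at 0.5 hpf and 10.6 TPM at 1 hpf, and in rRNA-depleted libraries 42.1 and 40.9 TPM, against 43.7 and 41.6 TPM. Its tested difference was 1.47 ± 0.36 (edgeR, adjusted p = 0.0264). For this RNA the call at 2 hpf did not hold without any single one of 7 libraries (adjusted p from 0.0617 to 0.489). At 4 hpf HyS0068.83 had the largest called difference, 3.27 ± 0.61 (edgeR, adjusted p = 0.00104). In the fit of the compared groups only, HyS0028.89 at 2 hpf and HyS0068.83 at 4 hpf were not called (edgeR, adjusted p = 0.0669 and 0.0565).

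Dp-1, HyS0058.97, ranked at 73 of 150 by its gain. In poly(A)+ libraries it had 315 and 318 TPM at 3 hpf, against 107, 139.9 and 143 TPM in the egg. It had 231 and 260.5 TPM at 2 hpf and 345 and 367 TPM at 4 hpf, against 125 TPM at 0.5 hpf and 164 TPM at 1 hpf. All libraries at 2 and 4 hpf were above those of the first hour, with log2 fold changes of 0.74 ± 0.15 (edgeR, adjusted p = 0.00621) and 1.26 ± 0.15 (adjusted p = 1.37e-05), the first of which was lost without any one of 3 libraries (adjusted p from 0.0567 to 0.515) and with clutch as a block (adjusted p = 0.0566). In rRNA-depleted libraries it had 253 and 319 TPM at 3 hpf, against 268, 319 and 319.96 TPM in the egg, and was not called at 2 or 4 hpf. The difference between library types was 0.99 ± 0.20 at 4 hpf (edgeR, adjusted p = 0.00225) and 0.46 ± 0.20 at 2 hpf (adjusted p = 0.553). At 7 hpf it had 198 and 189 TPM in poly(A)+ libraries, below both at 4 hpf (log2 fold change -0.87 ± 0.15, edgeR, adjusted p = 0.000237). In larvae its poly(A)+ level was 148.4 and 146 TPM at 24 hpf and 26.0 and 24.4 TPM at 72 hpf. The E2F genes that the paper names beside it, HyS0045.22 (E2f2) and HyS0034.46 (E2f7), were abundant in the egg too, at 292, 403 and 367 TPM and at 205, 231 and 221 TPM in poly(A)+, and neither was called at 2 or 4 hpf (log2 fold changes of 0.38 and 0.01 at 4 hpf, edgeR, adjusted p = 0.229 and 1).

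Of the 3 listed genes that are not members, 0 rose in poly(A)+ libraries at 2 or 4 hpf. Smaug, which in flies directs removal of poly(A) tails from maternal messages, had 50.1 and 51.1 TPM at 4 hpf, against 102 TPM at 0.5 hpf and 94.7 TPM at 1 hpf, a log2 fold change of -1.02 (edgeR, adjusted p = 0.00255). The predicted H4K20 methyltransferases HyS0034.48 and HyS0117.8 had log2 fold changes of -0.27 and -0.43 at 4 hpf, not called (edgeR, adjusted p = 0.46 and 0.892).

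**Figure D4:**
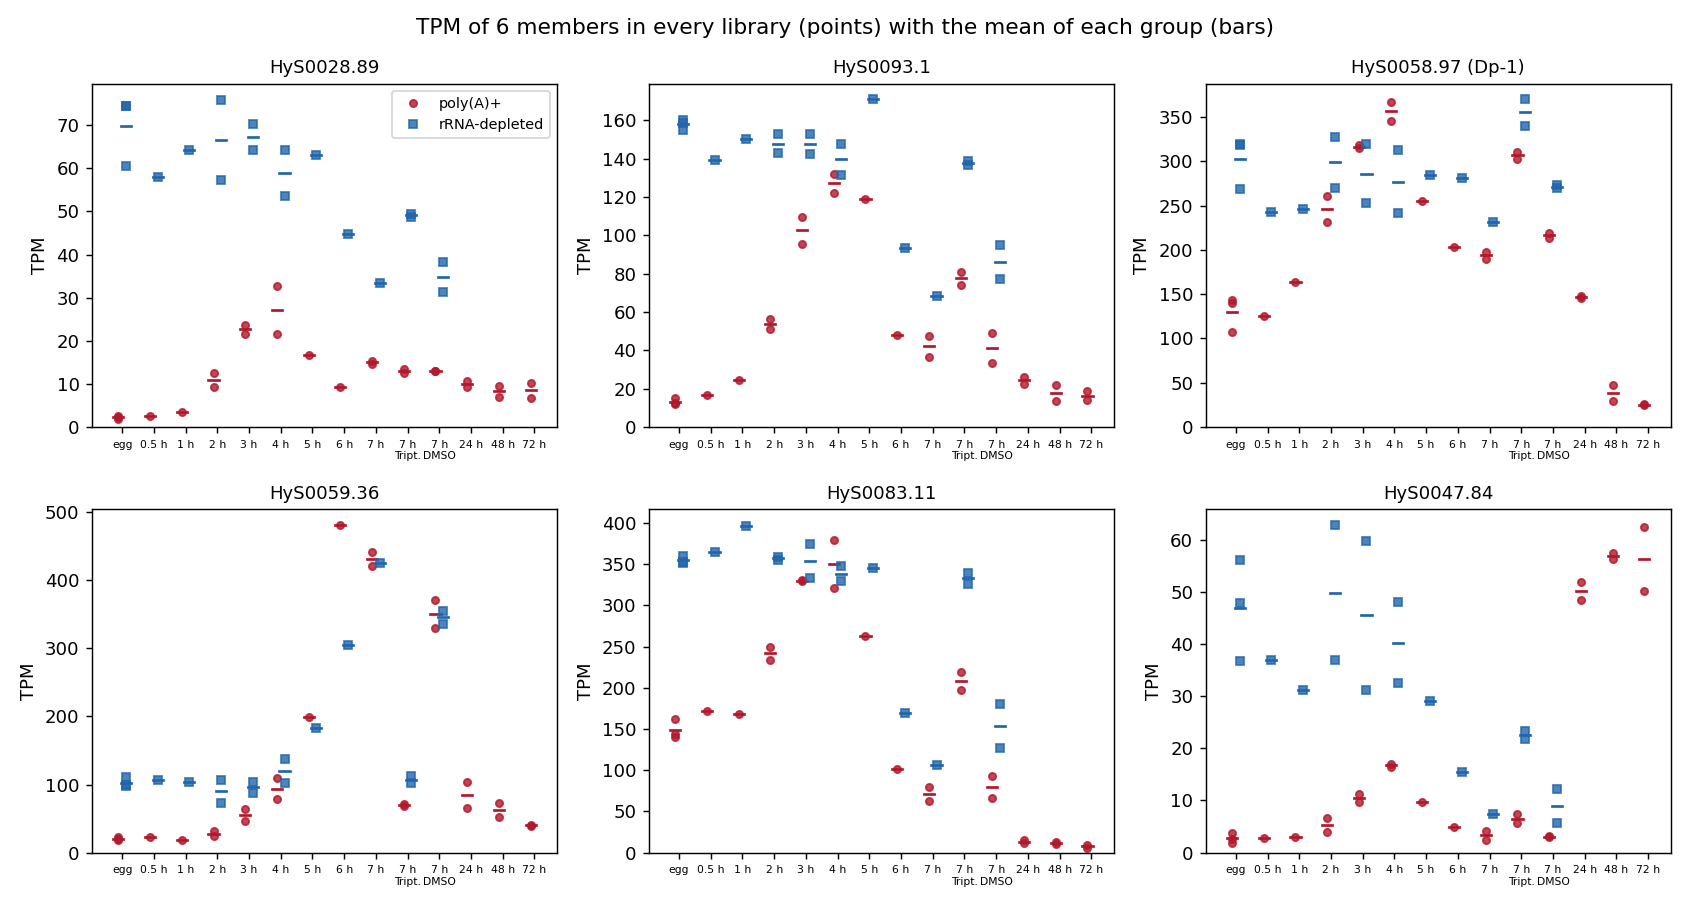
TPM of 6 members in every library, poly(A)+ as red circles and rRNA-depleted as blue squares, with short bars at the mean of each group and each axis starting at 0. HyS0028.89 and HyS0093.1 had the largest gains at 3 hpf, HyS0058.97 is Dp-1, and the lower row shows members named for later changes, such as HyS0059.36, at 421 and 441 TPM in poly(A)+ at 7 hpf, and HyS0047.84, at 52.0 and 48.4 TPM at 24 hpf.

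After 4 hpf the members parted. At 7 hpf 59 members were lower in poly(A)+ libraries than at 4 hpf and 15 were higher (edgeR, adjusted p under 0.05), where 15.6% of 18928 genes were called lower and 16.5% higher. Among the 9110 other stable maternal genes 2609 were called lower and 1005 higher, and a difference of the members from these was not tested. The median log2 fold change was -0.41 in members and -0.18 in the other stable maternal genes. With RLE size factors the median of all genes was 0.15, in place of 0.01 with TMM, the counts were 54 lower and 24 higher and the medians -0.27 and -0.03. The stages came from different clutches (B and D against A and C), and with clutch as a block 25 members were lower and 2 higher. The count of 15 was 6 without the 4 hpf library of clutch A, 7 without that of clutch C and 8 without the 7 hpf library of clutch B.

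HyS0083.11 was the member that fell furthest, with 63.0 and 79.4 TPM at 7 hpf, against 321 and 379 TPM at 4 hpf (log2 fold change -2.27 ± 0.23, edgeR, adjusted p = 1.15e-06). Its rRNA-depleted level was 107 TPM in the 1 library at 7 hpf, against 348 and 329 TPM at 4 hpf. HyS0047.84 had 2.41 and 4.21 TPM at 7 hpf, against 16.5 and 17.1 TPM at 4 hpf (-2.22 ± 0.33, edgeR, adjusted p = 5.73e-05). HyS0047.84 had thus lost most of the poly(A)+ signal gained by 4 hpf, and its rRNA-depleted level had fallen as well. Its poly(A)+ minus rRNA-depleted level was -1.31 in the split 7 hpf sample, against -0.94 and -1.44 at 4 hpf, in log2(TPM + 1). HyS0083.11 fell by more than its gain, which at 4 hpf was 0.98 ± 0.21 in log2 over 0.5 and 1 hpf (edgeR, adjusted p = 0.00377). For both, no library of one stage overlapped the other, which was a condition for naming them. The call of HyS0047.84 was lost with clutch as a block (edgeR, adjusted p = 0.062). HyS0059.36 rose most, with 421 and 441 TPM at 7 hpf, against 109 and 78.5 TPM at 4 hpf (2.19 ± 0.24, edgeR, adjusted p = 3.15e-06). HyS0034.183 had 189 and 168 TPM at 7 hpf, against 73.4 and 41.6 TPM at 4 hpf (1.61 ± 0.32, edgeR, adjusted p = 0.000936). In these last 2 the rRNA-depleted level was also higher at 7 hpf, at 425 and 176 TPM in the library of clutch B, against 138 and 102 TPM and 86.3 and 44.3 TPM at 4 hpf.

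In larvae the members mostly lay below the 7 hpf embryo. At 24 hpf 71 members were lower than at 7 hpf and 27 higher (edgeR, adjusted p under 0.05), where 22.4% of genes were called lower and 32.5% higher. Of the 9110 other stable maternal genes, 3670 were called lower and 2247 higher, and whether the members differ from these was not tested. The median log2 fold change was -0.56 in members and -0.25 in the other stable maternal genes, beside 0.34 over all genes tested. HyS0033.97 had 0.523 and 0.802 TPM at 24 hpf, against 15.6 and 15.3 TPM at 7 hpf (-4.00 ± 0.28, edgeR, adjusted p = 1.95e-09). HyS0023.61 had 4.21 and 5.18 TPM, against 61.8 and 63.9 TPM (-3.21 ± 0.24, edgeR, adjusted p = 3.72e-09). Both stayed under 10 TPM at 48 and 72 hpf. HyS0047.84, which had fallen by 7 hpf, had 52.0 and 48.4 TPM at 24 hpf, against 2.41 and 4.21 TPM at 7 hpf (4.34 ± 0.34, edgeR, adjusted p = 6.34e-09). HyS0012.245, the member with the longest coding sequence, had 55.1 and 38.7 TPM, against 5.23 and 5.70 TPM (3.63 ± 0.36, edgeR, adjusted p = 1.28e-07). Larval clutches E and F were not used at any earlier stage, and stage and clutch cannot be told apart.

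Embryos kept in Triptolide held the gain in poly(A)+ signal at 7 hpf, as did DMSO and untreated embryos. The member median change from the egg was 1.42 in Triptolide, 1.18 in DMSO and 1.24 in untreated embryos, in log2(mean TPM + 1). In Triptolide 120 members were higher than at 0.5 and 1 hpf and 8 were lower (edgeR, adjusted p under 0.05), where 11.3% of 18928 genes were called higher and 15.7% lower. The median log2 fold change was 1.21 (quartiles 0.86 and 1.70), against -0.04 in the other stable maternal genes. Both Triptolide libraries lay above the 0.5 and 1 hpf libraries for 138 members, where 29.7% of all genes did so. The treated embryos came from clutches D and G and the early ones from A, so clutch and time cannot be told apart in these groups. With clutch as a block 70 members were higher and 3 lower.

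HyS0033.119 and HyS0068.83 again changed most, with 37.3 and 39.1 TPM and with 8.87 and 9.16 TPM in Triptolide, against 0.418 and 8.01 TPM and 0.444 and 0.456 TPM at 0.5 and 1 hpf. Their log2 fold changes were 4.43 ± 0.62 and 4.27 ± 0.44 (edgeR, adjusted p = 1.96e-05 and 5.76e-07), the first of which was lost with clutch as a block (adjusted p = 0.0638). Of the members called lower, the 2 furthest below the first hour were HyS0008.94 and HyS0008.95, which are numbered next to each other on the same scaffold. HyS0008.94 had 3.57 and 3.62 TPM in Triptolide, against 12.3 and 22.6 TPM at 0.5 and 1 hpf (-2.24 ± 0.38, edgeR, adjusted p = 0.000182, and 0.0531 with clutch as a block). HyS0008.95 had 8.51 and 8.51 TPM, against 17.2 and 33.7 TPM (-1.52 ± 0.30, edgeR, adjusted p = 0.000797). Their DMSO libraries were as low, at 3.61 and 3.50 TPM and at 8.69 and 10.03 TPM.

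Against DMSO, more members were higher than lower in Triptolide in poly(A)+ libraries. There 32 members were higher and 13 lower in Triptolide (edgeR, adjusted p under 0.05), where 5.03% of 18928 genes were called higher and 18.8% lower. Calls among the 9110 other stable maternal genes were 846 higher and 1215 lower. The median log2 fold change was 0.21 in members and 0.07 in the other stable maternal genes. A fit of these 2 groups only called 59 higher and 23 lower. With 2 libraries a side the counts moved with single libraries, to 6 higher and 8 lower without DMSO of clutch G, to 14 higher and 8 lower without Triptolide of clutch D, and to 17 higher without Triptolide of clutch G.

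HyS0083.11, the RNA that fell furthest after 4 hpf, was also the member furthest above DMSO, with 219 and 197 TPM in Triptolide, against 93.4 and 66.3 TPM in DMSO (1.35 ± 0.22, edgeR, adjusted p = 0.000155). HyS0099.33 had 72.8 and 72.1 TPM, against 38.2 and 29.7 TPM (1.06 ± 0.15, edgeR, adjusted p = 3.87e-05). HyS0059.36, which rose furthest after 4 hpf, had 70.7 and 69.0 TPM in Triptolide, against 330.5 and 371 TPM in DMSO (-2.37 ± 0.24, edgeR, adjusted p = 1.12e-06). HyS0034.183 had 27.4 and 33.1 TPM, against 139 and 150.3 TPM (-2.31 ± 0.33, edgeR, adjusted p = 5.28e-05). The treated libraries did not overlap the DMSO libraries for any of these 4, which was a condition for naming them. Dp-1 had 311 and 303 TPM in Triptolide, against 213 and 219 TPM in DMSO (0.46 ± 0.15, edgeR, adjusted p = 0.0298), a call that did not hold without any one of the 4 libraries (adjusted p from 0.0913 to 0.158) or with clutch as a block (adjusted p = 0.0686).

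**Figure D5:**
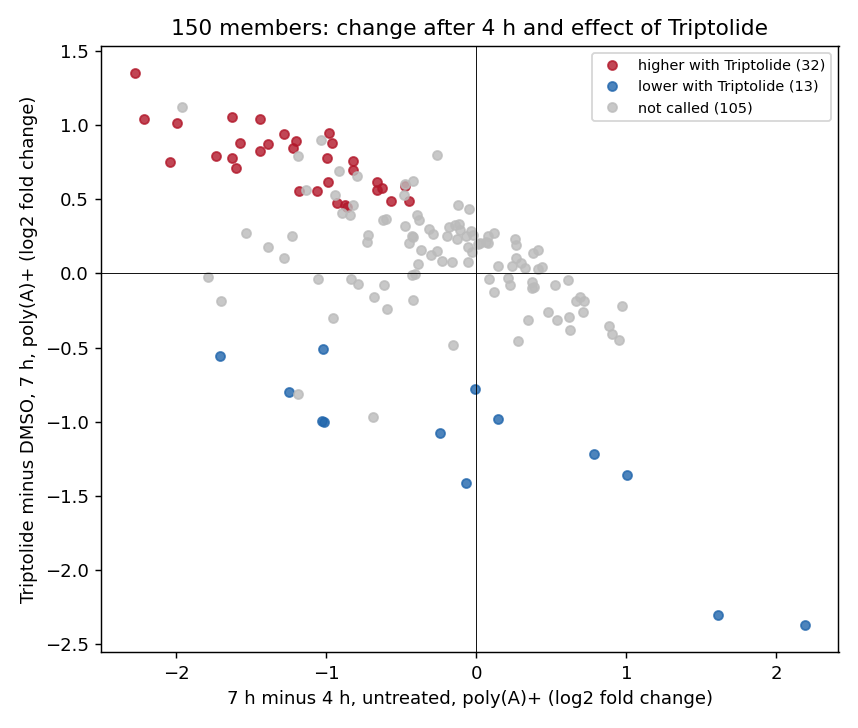
Each of the 150 members by its log2 fold change from 4 to 7 hpf in untreated poly(A)+ libraries (horizontal) and by its log2 fold change between Triptolide and DMSO at 7 hpf in poly(A)+ libraries (vertical). Red points are the 32 members called higher in Triptolide, blue points the 13 called lower and grey points the rest. All 32 red points lie left of 0 on the horizontal axis, and the 2 lowest blue points, HyS0059.36 and HyS0034.183, lie at 2.19 and 1.61 on it.

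The members higher in Triptolide were among those that fell after 4 hpf in untreated embryos. All 32 members called higher in Triptolide were among the 59 called lower at 7 hpf than at 4 hpf, which is 100% of the first list and 54.2% of the second. Over all genes tested, 873 of 952 genes higher in Triptolide (91.7%) were lower at 7 hpf than at 4 hpf, and they made up 29.5% of the 2959 genes lower at 7 hpf. Whether the members differ from all genes in these shares was not tested. The members lower at 7 hpf had a median Triptolide effect of 0.56 (from -1.004 to 1.35), the 15 higher ones -0.36 (from -2.37 to -0.16) and the 76 with no call 0.16. The comparisons share no library, although clutch D is in both.

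In rRNA-depleted libraries the count of members that differed between Triptolide and DMSO depended on the scaling of the libraries. With TMM factors 47 members were higher and 10 lower in Triptolide than in DMSO (edgeR, adjusted p under 0.05), where 17.8% of 15944 genes were called higher and 14.3% lower. The same fit called 2656 of the 9110 other stable maternal genes higher and 497 lower, and a difference of the members from these was not tested. With RLE size factors 16 were higher and 16 lower, and the median of all genes was -0.12 in place of 0.08. The member median was 0.21 with TMM and 0.01 with RLE, and that of the other stable maternal genes 0.25 and 0.04, so under both the members lay slightly below the others. With clutch as a block 70 members were higher and 13 lower, and the count of 47 was 30 without DMSO of clutch D and 22 without any one of the other 3 libraries. Of the 32 members higher in Triptolide in poly(A)+ libraries, 25 were also among the 47, which is 78.1% of the first list and 53.2% of the second, where the shares over all genes were 78.8% of the first list and 26.5% of the second, a difference that was not tested.

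Of the 2 members called with the largest change in each direction in rRNA-depleted libraries, 4 in all, 3 kept their call with RLE size factors. HyS0106.13 had 3.16 and 3.26 TPM in Triptolide, against 21.6 and 23.8 TPM in DMSO (-2.76 ± 0.45, edgeR, adjusted p = 0.00107). HyS0059.36 had 102 and 112 TPM, against 336 and 355 TPM (-1.63 ± 0.23, edgeR, adjusted p = 0.000449). These 2 also were lower in poly(A)+ libraries. HyS0047.84 had 21.8 and 23.3 TPM, against 12.2 and 5.76 TPM (1.42 ± 0.41, edgeR, adjusted p = 0.0233), a call lost without any one of 3 libraries (adjusted p from 0.0732 to 0.192) and with RLE size factors (adjusted p = 0.0546). HyS0001.610 had 63.6 and 63.7 TPM, against 24.5 and 32.4 TPM (1.21 ± 0.22, edgeR, adjusted p = 0.00217). In log2(TPM + 1), the poly(A)+ minus rRNA-depleted median of the members was -0.39 and -0.41 in Triptolide, against -0.52 and -0.56 in DMSO. The other stable maternal genes had -0.28 and -0.24 in Triptolide, against -0.14 and -0.22 in DMSO.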

How the data were processed

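Poly(A)+ (25), rRNA-depleted (18) and pilot (2) libraries were used. Per the labels and methods, the authors trimmed reads with Trim Galore 0.6.6 and cutadapt 1.15, and estimated counts on the Hsym 1.0 protein-coding transcripts with kallisto 0.46.1, strand-aware. The labels also name DESeq2 4.0.3. The deposited estimated counts are per gene model, and 18.7% of values are not whole, so they were rounded before the tests. TPM were computed from the counts and coding lengths, all multiples of 3. Total counts were 3107733 to 32015981 in poly(A)+ and 3503063 to 20464402 in rRNA-depleted libraries, and 548655 and 7902890 in the pilot pair. In the time course, scarce RNAs are least precise in the shallow libraries of clutch B and in the rRNA-depleted library at 0.5 hpf (clutch A). The latter, with 3503063 counts, is part of the rRNA-depleted comparisons with 0.5 and 1 hpf. Gene models on HyS0385 and the 1178 in 360 sets of identical values were left out of the choice of members. No 2 libraries of a group held identical values.

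Genes whose counts in a fit summed to 10 or more were tested with edgeR 4.0.16 (R 4.3.3), with TMM factors, a trended dispersion, a mean for each group and a quasi-likelihood F test, with Benjamini-Hochberg adjustment over all genes at 0.05. The poly(A)+ fit held 25 libraries in 14 groups (11 residual degrees of freedom), the rRNA-depleted fit 18 in 11 (7) and the joint fit 43 in 25 (18). The 0.5 and 1 hpf groups have 1 library each, and the pooled spread was assumed for them. Clutch letters in the labels mark shared clutches, and samples of clutches A and C deviated together up to 4 hpf (r from 0.55 to 0.84 over genes), while Triptolide and DMSO samples did not (r of -0.10 for poly(A)+ libraries and -0.01 for rRNA-depleted ones). The alternatives were RLE factors, other filters, DESeq2 1.42.0, blocks, fits of the compared groups only, and leaving out each library. The fits were tested on simulated data.

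The members and gene lists were chosen with earlier results of these data known. Named in the text are Dp-1, the 10 largest gains and, for each comparison, the 2 members with the largest change in each direction among those called and with no overlap of libraries between the groups. Other names were chosen after their values were seen, where the text says so. None of the identifiers matched the reference table, so no sequences or further gene names are given.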

Additional observations from a re-analysis of the deposited data

Results flagged for a closer look

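The change at 2 and 4 hpf differed between library types for 16 and 108 members, larger in poly(A)+ in each, by edgeR's test of the difference itself (values for the named members are in the report).

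The pair of pilot libraries at 1 hpf, 1 poly(A)+ and 1 without selection, was in no comparison. In it 98.7% of members had over 3 counts in the poly(A)+ library and 95.3% in the library without selection. The poly(A)+ minus unselected level had a median of -1.64 in members, against -0.18 in the other stable maternal genes, in log2(TPM + 1). The main sample labelled 1 hpf had -1.36 and -0.17, set against an rRNA-depleted library. Per the paper, the pilot embryos were kept cooler than those of the time course, so the stages may not match. There is 1 library of each kind, so the pilot values have no replicate check.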

How the results depend on the processing

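The count of members higher at 4 hpf was 134 to 142 under the alternative fits and 105 to 126 without any one library, and 0 members were lower in any of these. At 2 hpf it was 34 with clutch as a replicate block and 3 to 49 without any one library. In rRNA-depleted libraries 1 member was lower at 4 hpf with the clutch block and 0 were called in the other alternatives. The difference between library types at 2 hpf was called for 41 members with DESeq2, 72 with the sample as a replicate block, 0 in a fit of the compared groups only and 2 to 20 without any one library, and at 4 hpf for 79 to 107. Under the other alternatives the count of this difference at 4 hpf was 75 to 138, lowest in a fit of the compared groups only. From 4 to 7 hpf, 24 members were higher with RLE factors, 25 with DESeq2 and 2 with the clutch block, which called 25 lower. Without any one library 6 to 10 were higher and 43 to 56 lower. From 7 to 24 hpf 18 to 27 were higher and 59 to 79 lower, and no clutch block could be fitted. Between Triptolide and DMSO in poly(A)+ libraries, 59 were higher and 23 lower in a fit of these groups only, and 6 to 24 and 8 to 10 without any one library. In rRNA-depleted libraries 16 were higher and 16 lower with RLE factors, 17 and 19 with DESeq2, 31 were higher with filterByExpr, 29 were lower in a fit of these groups only, and 22 to 30 were higher and 7 to 10 lower without any one library. Of the members called in that comparison, the share called higher was thus 50% with RLE factors, in place of 82.5% with TMM. From 4 to 7 hpf in poly(A)+ libraries this share was 30.8% with RLE factors, in place of 20.3%. In poly(A)+ libraries, Triptolide against 0.5 and 1 hpf gave 70 higher and 3 lower with the clutch block, and 91 to 111 and 6 to 8 without any one library.

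For Dp-1 the change from 7 to 24 hpf, 0.14 and not called, was -0.031 with no filter, -0.043 with filterByExpr, -0.049 without HyS0385 and identical models, -0.040 in a fit of the compared groups only and -0.043 to 0.149 without any one library, the lowest without clutch B at 7 hpf. Over 39 results for single members and 448 alternative values, 405 kept their direction and side of the threshold and 37 lost the call. The rule kept 121 to 150 of the 150 members under 13 alternatives. The causes of these shifts were not tested.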
